A study of Mus musculus with 6 samples.

Results

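The machinery that makes microRNAs, silences their targets and degrades mRNA was followed in the arcuate hypothalamus of 2-week-old mice, as a set of 44 genes. The set was fixed by gene name: every probe set annotated to exactly 1 of these genes was taken, with Eif2c1 to Eif2c4 accepted for the Argonaute genes and Zcchc11 and Zcchc6 for Tut4 and Tut7. This gave 125 probe sets for 42 genes, out of 45037 probe sets and 18193 named genes on the array. Gemin4 and Cnot1 had no probe set of their own and are not analysed here. RNA had been hybridised to Affymetrix Mouse Genome 430 2.0 arrays, on which a probe set of short oligonucleotides, usually near the 3′ end, reports a transcript. There were 3 Control arrays and 3 POMCDicerKO arrays, the latter from mice that lack Dicer in cells expressing Pomc, the precursor gene of the melanocortin peptides. Both groups were on standard chow, and their strain was given as mixed, from C57Bl/6J, FVB/N and 129. The Cre line and floxed allele, the genotype of the controls beyond "Ctrl", and whether an array holds 1 animal or a pool are not stated in the labels. The design text calls the 3 samples of a group independent.

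MicroRNA production begins in the nucleus, where Drosha and its partner Dgcr8 cut a hairpin out of the primary transcript. Xpo5 and the GTPase Ran carry the hairpin to the cytoplasm, Dicer removes its loop, and an Argonaute protein keeps a single strand as its guide. Argonaute then recruits a GW182 protein of the Tnrc6 family, which brings in the deadenylases, the decapping enzyme and the exonuclease Xrn1 that destroy the mRNA. Uridylyltransferases and adenosine deaminases modify the hairpins on the way. In neurons the same machinery also acts on RNA transported to dendrites, with Fmr1 and its relatives bound to many of those mRNAs.

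The let-7 hairpins show what Dicer and Tut4 act on. Sequences are from the RefSeq table of build GRCm38.p6, written 5′ to 3′, and capitals mark the annotated mature arms that Drosha and Dicer set free.
let-7g (chr9:106178840-106178927, plus strand): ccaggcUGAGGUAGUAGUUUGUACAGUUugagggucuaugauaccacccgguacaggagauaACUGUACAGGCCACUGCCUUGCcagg
let-7a-1 (chr13:48538179-48538272, minus strand): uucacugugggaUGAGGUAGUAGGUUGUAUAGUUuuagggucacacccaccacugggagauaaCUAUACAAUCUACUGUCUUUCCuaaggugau
let-7b (chr15:85707319-85707403, plus strand): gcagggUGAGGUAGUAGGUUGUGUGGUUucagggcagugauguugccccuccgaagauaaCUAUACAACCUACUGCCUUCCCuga

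Between the arms lies the loop that Dicer removes, and it is there that Lin28 proteins bind and recruit Tut4 to add uridines to the hairpin end. The letters GGAG, which Lin28 is known to recognise, stand between the arms of 8 of the 10 let-7 hairpins with both arms annotated, let-7g and let-7a-1 among them, and not in let-7b. Among the 634 other hairpins with both arms annotated, 6.94% hold them there. The search covered the hairpin strand as printed. The mature products share their seed, bases 2 to 8 of the strand that Argonaute keeps, shown here in capitals.
let-7a-5p: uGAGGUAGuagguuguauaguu
let-7d-5p: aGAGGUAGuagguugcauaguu
let-7g-5p: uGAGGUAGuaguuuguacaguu
All 8 let-7 5′ strands in the table carry this 1 seed. The arrays reported messenger RNAs, and mature microRNAs were not analysed here.

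Any pair of arrays correlated at a Pearson r of 0.994 to 0.997 over the probe sets, and 0 were duplicates. All values below are log2 expression values, and a log2 fold change is POMCDicerKO minus Control. Of 12 arcuate markers 10 had a probe set of their own (Agrp and Kiss1 did not), and all 10 had a mean of at least 6, close to the median of the arrays. All 10 were lower in POMCDicerKO, with a median of -0.21, and the list stood at -0.18, 0.25 and -0.062 on the Control arrays and at -0.54, -0.067 and -0.26 on the POMCDicerKO arrays relative to the Control mean. None passed adjustment by limma. Markers of neighbouring tissue were also present and unevenly so: the meningeal list, all 10 of 10 lower, stood at 0.47, 0.49 and -0.96 on the Control arrays and at -0.69, -1.01 and -1.41 on the POMCDicerKO arrays relative to the Control mean. The myelin list, 10 of 10 higher, stood at 0.12, -0.13 and 0.0042 against 0.79, 0.13 and 0.39. The 3 erythroid genes were also all lower, at -0.76, 0.63 and 0.13 against -0.81, -0.85 and -0.62. The 2 lateral hypothalamic genes, both higher, stood at 0.23, -1.07 and 0.85 against 1.56, -0.68 and 0.052. Paraventricular markers, 2 of 4 higher, stood at 0.67, -0.40 and -0.27 against -0.015, -0.10 and 0.057. Control array 2 was the lowest control in both. Pituitary markers, 2 of 6 higher, stood at 0.07, 0.17 and -0.24 against 0.40, -0.83 and -0.018. This mean joined large opposite differences, Gh at 1.64 and Cga at -2.37, and 2 of the 6 had a mean of at least 6. Of 5 choroid plexus markers 4 were lower, at 0.085, -0.0215 and -0.064 against -0.17, 0.14 and -0.68. Of 6 general neuron markers 3 were higher and 3 lower, with a median difference of -0.0011. Higher values were found for 9 of 10 microglial markers (median 0.10) and 5 of 6 endothelial markers (median 0.088). For astrocytes 4 of 8 markers were higher, and for the ventromedial nucleus 1 of 3. The part of these tissues and cell types in the results below was not tested. In a dissected tissue, fewer cells of a type and less RNA per cell cannot be told apart.

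Taken by 1 probe set per gene, the POMCDicerKO arrays lay very near the Control arrays across the machinery. Each gene was represented by its main probe set, the one with the highest mean over all 6 arrays. On these, 16 genes were higher (38.1%, against 44.9% of all genes) and 26 lower. Their median log2 fold change was -0.017, against -0.0099 over all 18193 genes, and they ran from -0.13 for Dcp1a to 0.30 for Xrn1. None of the 125 probe sets passed limma's test at an adjusted p under 0.05 (adjusted p = 1 for each), and on the whole array 0 passed (0%), also without moderation of the variance, while 1098 had an unadjusted p under 0.05. At an unadjusted p under 0.05, 2 of the 125 were lower, where the share of all probe sets was 1.20%, and 0 were higher, where it was 1.24%. Separate groups, with no overlap, were found at 5 probe sets with lower POMCDicerKO values (4.0%, against 3.22% of all probe sets) and at 3 with higher values (2.4%, against 3.14%). These shares were near those of the whole array. Without control 1 the count at an unadjusted p under 0.05 was 8 (6.4%, against 4.61% of all probe sets), and without control 3 it was 1 (0.8%, against 2.98%).

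At the main probe sets the differences in the dissected tissue were also narrowly bounded. A change confined to Pomc cells, which make up little of the arcuate nucleus, is not bounded by these values. The 95% interval of the main probe set lay within a 1.25-fold change in either direction for 38 of the 42 genes (90.5%), compared with 76.2% of all genes, and within 1.5-fold for 41 (97.6%, against 97.2%). The 4 genes whose main interval reached past 1.25-fold were Adarb1, Pan2, Dcp1a and Xrn1. Intervals of other probe sets also did, among them Tut4 1441359_at (-0.59 to -0.16) and 1456668_at (-0.68 to -0.035). For Ddx6 1424598_at the interval ran from -0.20 to 2.03. Standard errors ran from 0.058 for Dcp2 to 0.16 for Xrn1 with a median of 0.077, against 0.082 over all genes, and 41 of the 42 main probe sets had a mean of at least 6.

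**Figure D1:**
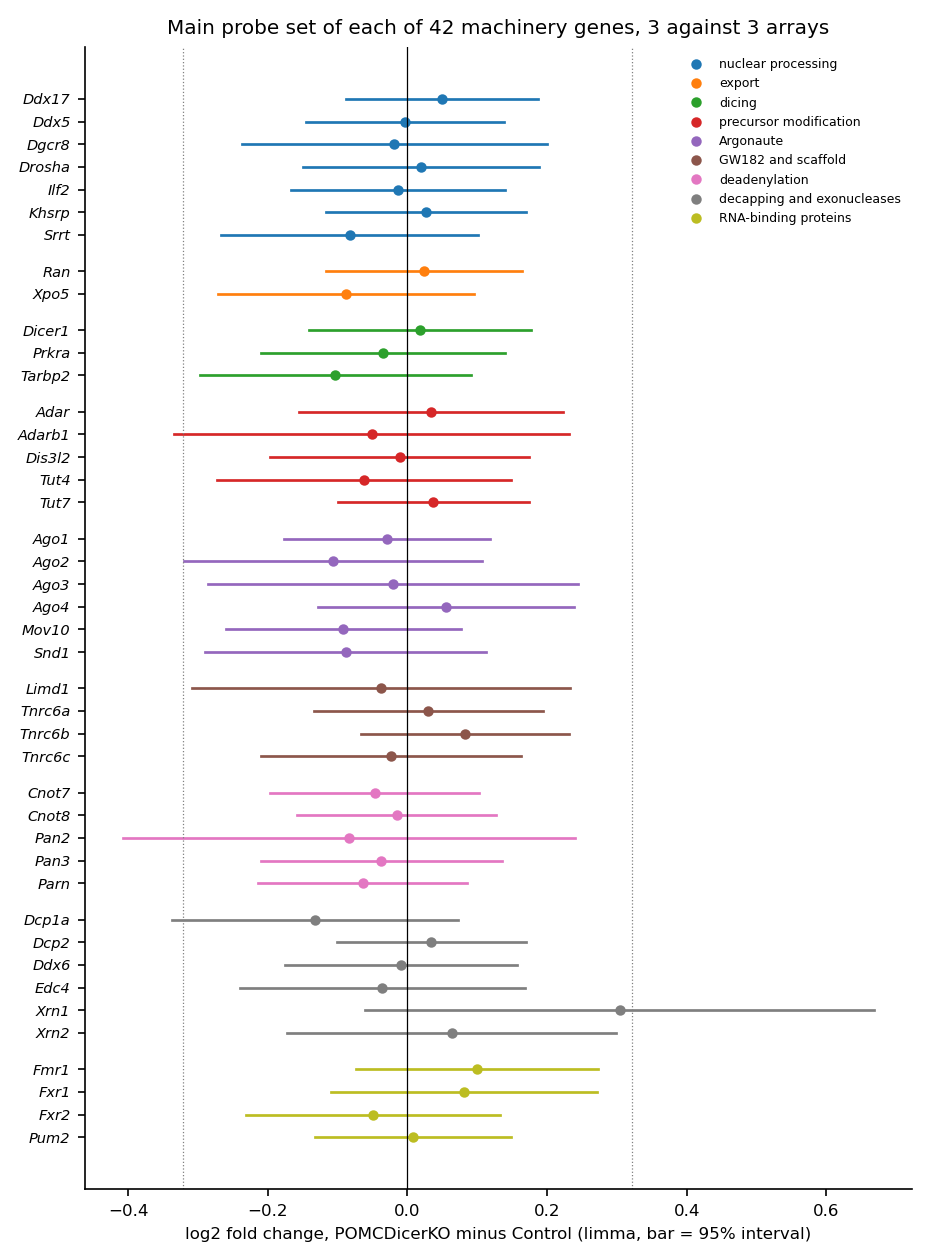
Log2 fold change (POMCDicerKO minus Control, x axis) of the main probe set of each of the 42 measured genes, coloured by role, with limma's 95% interval as a bar and dotted lines at a 1.25-fold change. The estimates run from -0.13 (Dcp1a) to 0.30 (Xrn1), and 38 of the 42 intervals lie between the dotted lines.

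Dicer1, the gene targeted in Pomc cells, had overlapping groups at both of its probe sets in the dissected tissue. Probe set 1460571_at read 9.22, 9.18 and 9.24 on the Control arrays and 9.18, 9.19 and 9.33 on the POMCDicerKO arrays. The groups overlapped, and the highest value was that of a POMCDicerKO array. The log2 fold change was 0.018 (standard error 0.068) and a 95% interval from -0.14 to 0.18 (exact permutation p = 0.8). Probe set 1427941_at read 7.06, 7.27 and 7.27 in Control and 7.21, 7.21 and 7.45 in POMCDicerKO, a difference of 0.09 with an interval from -0.13 to 0.31 (exact permutation p = 0.6). Where these probe sets lie relative to the deleted exons is unknown, and Pomc cells make up little of the arcuate nucleus, so neither value checks the genotype. Pomc itself read 9.94, 10.87 and 9.76 in Control and 9.35, 9.71 and 9.43 in POMCDicerKO, with an interval from -1.32 to -0.071 before any adjustment.

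The double-stranded RNA-binding partners of Dicer also had overlapping groups at their main probe sets. Tarbp2, a double-stranded RNA-binding protein that holds Dicer and its substrate together, read 7.23, 7.36 and 7.40 in Control and 7.20, 7.13 and 7.36 in POMCDicerKO at 1423616_at. The log2 fold change was -0.10 (standard error 0.083) (exact permutation p = 0.2). Without POMCDicerKO array 3 it was -0.17, without array 2 -0.055, and at 1438952_x_at it was -0.0079. Prkra, the related partner also known as PACT, read 8.97, 9.19 and 9.10 against 9.02, 9.08 and 9.05 at 1448923_at, with all POMCDicerKO values inside the Control range. Its second probe set, 1447737_at, had groups that did not overlap, 3.63, 3.65 and 3.55 against 3.70, 3.70 and 3.69. The lowest value on any array was 3.05, and differences so close to it are compressed.

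Nuclear processing showed 3 members higher and 4 lower, with a median of -0.0034. Drosha, the nuclear RNase III, read 10.87, 10.88 and 10.81 in Control and 10.92, 10.94 and 10.76 in POMCDicerKO at 1438505_s_at, giving a log2 fold change of 0.019 with an interval from -0.15 to 0.19. POMCDicerKO array 3 was the lowest of the 6 and array 2 the highest, so the groups overlapped fully. At 1428656_at, a probe set without the shared-transcript suffix, Drosha was at -0.068 with a standard error of 0.09.

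Dgcr8, the heme-binding protein that anchors the hairpin for Drosha, read 8.88, 8.87 and 9.00 against 8.72, 8.94 and 9.04 at 1455311_at. Both the lowest and the highest array were POMCDicerKO, and the difference of -0.019 was smaller than the spread within that group (SD 0.16, n = 3). Its interval ran from -0.24 to 0.20. Srrt, which links the cap-binding complex to primary transcripts, read 8.87, 9.06 and 8.96 against 8.86, 8.81 and 8.98, at -0.083. The helicase Ddx17 had non-overlapping groups at its main probe set, 12.45, 12.49 and 12.51 against 12.53, 12.53 and 12.53, but the difference was 0.049 with a standard error of 0.059 (unadjusted p = 0.43). The related helicase Ddx5 was at -0.0034, and Ilf2, a subunit of a nuclear complex that binds double-stranded RNA, at -0.013.

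Khsrp, a protein that binds the loops of let-7 precursors, gave different signs at its probe sets. The main probe set 1436813_x_at was at 0.027, while 1428174_x_at was lower on every POMCDicerKO array, 8.06, 8.21 and 8.08 against 7.98, 7.99 and 7.93, at -0.15 with a standard error of 0.068 (exact permutation p = 0.1, the smallest that 3 against 3 arrays can give). The probe set without a shared-transcript suffix, 1452690_at, was at -0.096. For export, Xpo5 read 8.10, 8.34 and 8.15 against 8.10, 8.10 and 8.12 at 1428560_at, so that Control array 2 stood above the rest. Its difference of -0.088 had an interval from -0.27 to 0.096 and was -0.015 without that array, and 1451468_s_at gave -0.046. Ran, which supplies the energy switch for export, read 12.10, 12.13 and 12.07 against 12.16, 12.13 and 12.09, at 0.023, and its 6 probe sets ran from 0.01 to 0.071.

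The Argonaute genes overlapped between the groups at their main probe sets. Ago2, the member of the family that cuts its target, read 10.43, 10.64 and 10.44 in Control and 10.38, 10.53 and 10.28 in POMCDicerKO at 1455389_s_at. That was a log2 fold change of -0.11 (standard error 0.092) and an interval from -0.32 to 0.11 (exact permutation p = 0.4), and its other 3 probe sets ran from -0.029 to 0.018. Control array 2 again held the highest value, and without it the difference was -0.039.

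Ago1, Ago3 and Ago4 are neighbours on chromosome 4, with no other protein-coding gene between them in the RefSeq order. Ago1 read 9.41, 9.44 and 9.35 against 9.41, 9.39 and 9.32, at -0.029 with an interval from -0.18 to 0.12. Ago3 read 7.79, 8.12 and 7.99 against 7.95, 8.11 and 7.78 at 1435904_at, at -0.02, and Ago4 read 7.48, 7.63 and 7.73 against 7.66, 7.70 and 7.64, at 0.055. The 3 neighbours did not share a direction. A further Ago3 probe set, 1441063_at, was at 0.32 with a standard error of 0.17, with Control array 2 at 7.40 beside 8.15 and 7.76, and without that array it was at 0.13.

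Proteins that work beside Argonaute had estimates below 0 that did not pass the test. Mov10, an RNA helicase of the silencing complex, read 6.06, 6.16 and 6.02 against 6.07, 5.98 and 5.92, at -0.092 with an interval from -0.26 to 0.076. Snd1, a nuclease that degrades edited and mature microRNAs, was at -0.089 at its main probe set and at -0.033 without control 2. Its weak probe set 1437037_x_at had separate groups, 5.11, 5.18 and 5.18 against 4.99, 5.10 and 5.09, a difference of -0.098 (unadjusted p = 0.171).

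**Figure D2:**
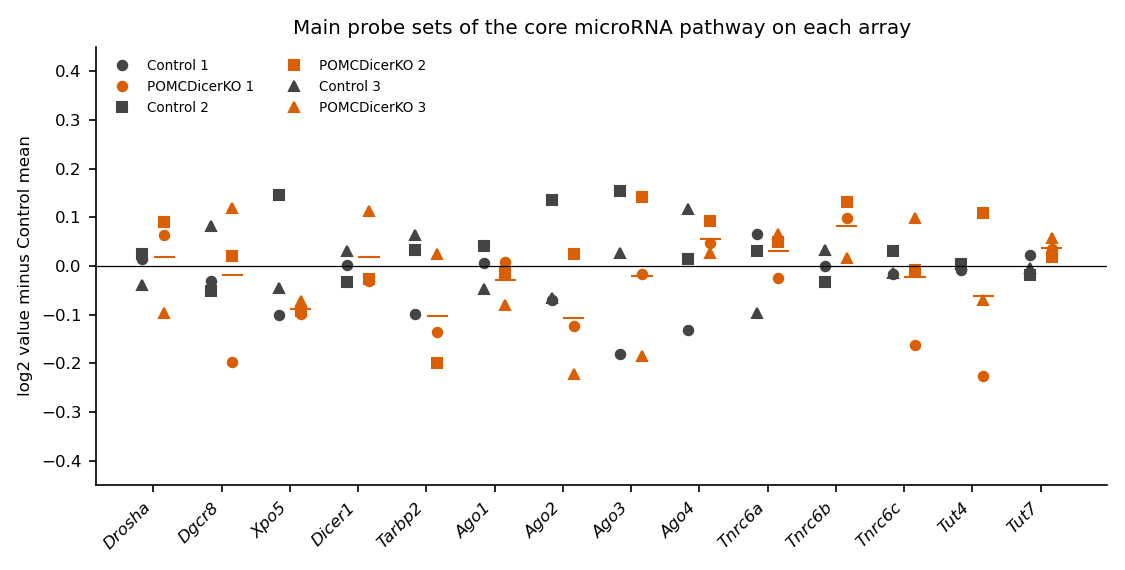
Log2 value minus the Control mean (y axis) on each of the 6 arrays for the main probe sets of 14 core genes, Control in grey and POMCDicerKO in orange, with array number by symbol and a bar at the POMCDicerKO mean. Values of the groups interleave for each gene, and the POMCDicerKO means lie between -0.11 (Ago2) and 0.083 (Tnrc6b).

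The GW182 proteins connect Argonaute to mRNA decay. Tnrc6a read 11.67, 11.63 and 11.51 in Control and 11.58, 11.65 and 11.67 in POMCDicerKO at 1439244_a_at, giving a log2 fold change of 0.03 (standard error 0.07). Its 9 probe sets, the largest number for any member, ran from -0.06 to 0.078 and none had separate groups. Tnrc6b read 10.02, 9.99 and 10.06 against 10.12, 10.16 and 10.04 at 1436982_at, at 0.083 with an interval from -0.066 to 0.23 (exact permutation p = 0.2). POMCDicerKO arrays 1 and 2 were the highest of the 6, and array 3 lay within the Control range. Tnrc6c read 9.65, 9.69 and 9.65 against 9.50, 9.66 and 9.76, at -0.024, with a wider spread among the POMCDicerKO arrays (SD 0.13) than among the controls (SD 0.027). Limd1, a scaffold that joins Argonaute and Tnrc6 proteins to the cap complex, was at -0.037 at its main probe set and at -0.16 at 1422730_at, where every POMCDicerKO array (6.33, 6.27 and 6.42) lay under every Control array (6.47, 6.60 and 6.44). That interval ran from -0.33 to 0.0097.

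Tut4, the uridylyltransferase recruited to let-7 hairpins, held the members' smallest p-values. At 1441359_at it read 6.95, 7.17 and 7.21 in Control but 6.71, 6.85 and 6.66 in POMCDicerKO, so the groups did not overlap. The means were 7.11 ± 0.14 and 6.74 ± 0.098 (SD, n = 3 each), a log2 fold change of -0.37 (standard error 0.092), or 1.29-fold, and a 95% interval from -0.59 to -0.16. The unadjusted p was 0.00401 and the adjusted p = 1 by limma, with an exact permutation p of 0.1.

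A second Tut4 probe set, 1456668_at, gave a like difference with overlapping groups. It read 7.07, 6.79 and 7.30 in Control and 6.83, 6.73 and 6.51 in POMCDicerKO, at -0.36 with a standard error of 0.14 (unadjusted p = 0.0341, exact permutation p = 0.2). At 1441545_at the groups were again separate, 7.34, 7.29 and 7.52 against 7.19, 7.25 and 7.28, but the difference was -0.14 with an interval from -0.33 to 0.041. At these 3 of the 5 probe sets the POMCDicerKO mean was thus lower by between 0.14 and 0.37.

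The 2 brightest Tut4 probe sets had estimates closer to 0, and whether the probe sets differ was not tested. The main one, 1437395_at, read 9.16, 9.17 and 9.17 in Control and 8.94, 9.27 and 9.10 in POMCDicerKO, giving a log2 fold change of -0.062 with an interval from -0.27 to 0.15. Here the controls were almost identical (SD 0.0076) and the POMCDicerKO arrays fell on either side of them. Probe set 1439631_at read 8.31, 7.90 and 8.35 against 8.04, 8.29 and 8.18, at -0.017. All 5 estimates were below 0, on the same arrays. Of the 856 genes with at least 5 probe sets, 31 had all estimates below 0 (3.62%). That share includes genes with more than 5 probe sets. Tut4 held the members' smallest p-values in these same data, so the share is no test of it. Which Tut4 transcripts each probe set matches was not analysed here, so the difference at 1441359_at cannot be assigned to the whole gene.

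With single arrays left out, 1441359_at stayed between -0.45 and -0.32 and 1456668_at between -0.49 and -0.24. Probe set 1441545_at ran from -0.19 to -0.075, the latter without control 3, while both bright probe sets took either sign. The part of the meningeal and myelin transcripts in the Tut4 values was not tested.

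**Figure D3:**
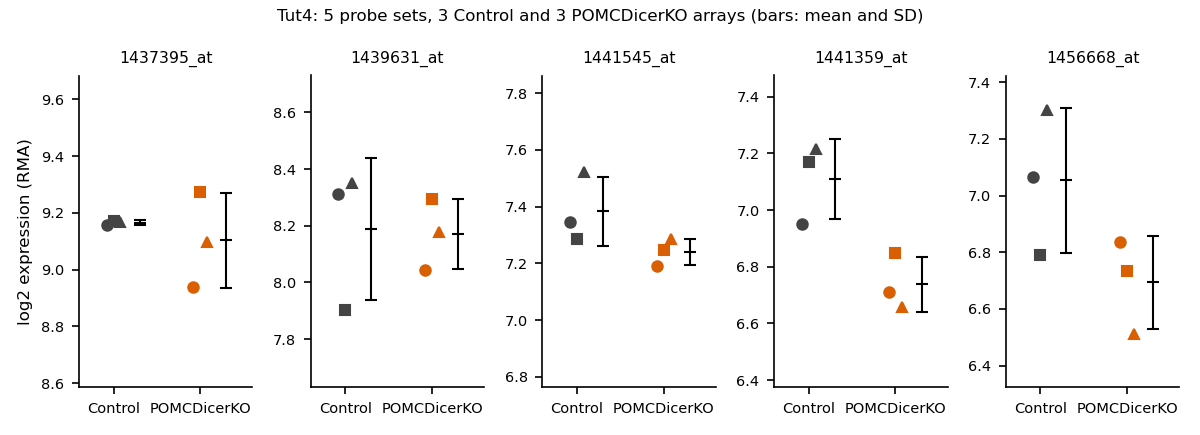
Log2 expression (y axis, each panel spanning the same range) of the 5 Tut4 probe sets on the 3 Control (grey) and 3 POMCDicerKO (orange) arrays, with mean and SD as black bars and array number by symbol. The groups are separate at 1441545_at and 1441359_at and interleave at 1437395_at and 1439631_at.

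The related enzymes had overlapping groups at every probe set. Tut7, which uridylates the same precursors, read 9.00, 8.96 and 8.97 in Control and 9.01, 8.99 and 9.03 in POMCDicerKO at 1433910_at, giving a log2 fold change of 0.037 with an interval from -0.099 to 0.17. At 1441986_at Tut7 was at 0.081, and whether Tut4 and Tut7 differ in their response was not tested. Dis3l2, the exonuclease that degrades uridylated pre-let-7, was weakly expressed on these arrays at 5.94, 6.11 and 5.87 against 5.93, 6.01 and 5.94, at -0.011. Further Dis3l2 probe sets were at 0.12 (1437951_at) and -0.048 (1459365_at).

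Lin28a and Lin28b, the proteins that bring Tut4 to let-7, are not members but stand upstream of it. Lin28a read 3.92, 3.87 and 3.81 against 3.65, 3.79 and 3.89, and Lin28b 3.63, 3.68 and 3.67 against 3.75, 3.67 and 3.70. Both lie near the lower end of the scale in each group, where a difference could not be seen. The adenosine deaminases that edit hairpins had overlapping groups at their main probe sets. Adar was at 0.034 (9.38, 9.21 and 9.39 against 9.33, 9.29 and 9.46). Adarb1 was at -0.051 with an interval from -0.33 to 0.23, and its probe set 1421480_a_at was at 0.14.

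At the main probe sets, deadenylation was the only group with every measured member on the low side, 5 of 5, although each by little. Over all genes 44.9% were higher. With single arrays left out, Cnot8, Pan2 and Pan3 took either sign. The median was -0.047. Parn, a poly(A)-specific ribonuclease that also trims small RNAs, read 8.28, 8.24 and 8.22 in Control and 8.13, 8.25 and 8.16 in POMCDicerKO at 1437334_x_at, giving a log2 fold change of -0.064 with an interval from -0.21 to 0.086 (exact permutation p = 0.3). The catalytic CCR4-NOT subunit Cnot7 read 11.25, 11.36 and 11.36 against 11.26, 11.30 and 11.26, at -0.047. Groups overlapped for all 5, and its paralogue Cnot8 was at -0.015. The PAN deadenylase subunits Pan2 and Pan3 were at -0.084 and -0.037, Pan2 with the second widest interval of the main probe sets, from -0.41 to 0.24. A dim Pan3 probe set, 1437883_s_at, was at 0.44 with a standard error of 0.27 with Control array 2 at 5.21 beside 6.39 and 6.11, and it was at 0.093 without that array. Pan3 1458465_at was at 0.14, and the average of all Pan3 probe sets was at 0.13.

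Decapping and exonucleases held the widest range of the roles. Dcp1a, the activator of the decapping enzyme, read 8.18, 8.42 and 8.34 against 8.09, 8.29 and 8.15 at 1433606_at, at -0.13 with a standard error of 0.088 (exact permutation p = 0.2). Dcp2, the decapping enzyme itself, read 10.03, 10.01 and 10.01 against 10.05, 10.03 and 10.07, at 0.034, the most precisely measured of all members. The scaffold Edc4 was at -0.036 and the nuclear exonuclease Xrn2 at 0.064, both with overlapping groups.

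Xrn1, the cytoplasmic exonuclease that finishes decay from the 5′ end, had the largest difference of the main probe sets. At 1442141_at it read 7.04, 6.47 and 7.03 in Control and 7.06, 7.12 and 7.28 in POMCDicerKO, giving a log2 fold change of 0.30 (standard error 0.16) (unadjusted p = 0.0906, exact permutation p = 0.1). The groups were separate by a narrow gap, and Control array 2 stood well under all others, so that without it the difference was 0.11. At its other probe set, 1450308_a_at, Xrn1 was at 0.061.

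Ddx6, the helicase that joins deadenylation to decapping, was level at its main probe set, with 10.24, 10.07 and 10.16 against 10.19, 10.09 and 10.17. Its probe set 1424598_at gave the members' largest difference, 0.91, but also their largest standard error, 0.48, with Control arrays at 6.91, 8.21 and 6.07 and POMCDicerKO arrays at 7.55, 8.14 and 8.24. It was at 1.48 without control 2 and 0.41 without control 3. Differences beyond 0.3 in size were found at 7 of the 125 probe sets (5.6%, against 1.5% of all probe sets). The lower ones were both of Tut4, and the 5 higher ones were those of Ago3, Tnrc6b, Pan3, Ddx6 and Xrn1. At 4 of these 5 Control array 2 was the lowest of the controls, as in Tnrc6b 1460024_at (7.78, 6.81 and 7.39 against 7.62, 7.68 and 7.61), which was at 0.31 with all arrays and at 0.054 without control 2.

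**Figure D4:**
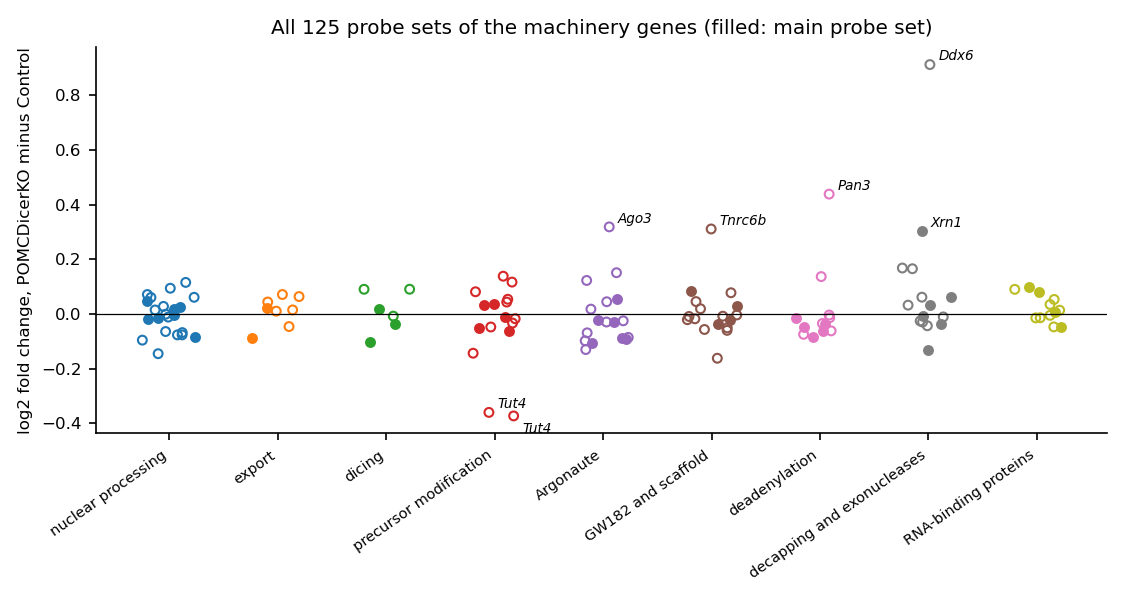
Log2 fold change (POMCDicerKO minus Control, y axis) of all 125 member probe sets by role, with main probe sets filled, others open and those beyond 0.3 in size named. Points gather around 0 in every role, Tut4 lies below at -0.37 and -0.36, and Ddx6 stands highest at 0.91.

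Of the RNA-binding proteins that work with silencing, 3 were higher and 1 was lower at the main probe set. Fmr1, the fragile X protein that represses translation at synapses, read 8.98, 8.98 and 9.07 in Control and 9.18, 9.15 and 9.00 in POMCDicerKO at 1423369_at, giving a log2 fold change of 0.10 with an interval from -0.074 to 0.27 (exact permutation p = 0.2). Its paralogue Fxr1 read 9.82, 9.83 and 10.03 against 9.90, 10.03 and 9.99, at 0.081, and Fxr2 was at -0.049. POMCDicerKO array 3 lay within the Control range for both Fmr1 and Fxr1. Pum2, which binds its own short element in target mRNAs, read 11.20, 11.21 and 11.19 against 11.17, 11.20 and 11.25, at 0.0075. Further probe sets ran from -0.014 to 0.09 for Fmr1, from -0.014 to 0.035 for Fxr1 and from -0.047 to 0.053 for Pum2.

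Of the 37 genes with more than 1 probe set, 19 had all estimates on the same side of 0 and 18 had estimates on either side. Relative to the Control mean of each gene, the median over the 42 main probe sets was -0.032, 0.016 and 0.017 on the Control arrays and -0.015, 0.013 and -0.0044 on the POMCDicerKO arrays. By this median the POMCDicerKO arrays lay within the Control range.

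Other genes of the same pathways were compared through 6 lists, 92 genes in all, of which 84 had a probe set of their own. Of these, 29 were higher and 55 lower, where 44.9% of all genes were higher. Their median log2 fold change was -0.028, against -0.0099 over all genes, and 0 passed limma's test over all probe sets. At an unadjusted p under 0.05, 3 of the 84 were lower (3.57%) and 0 were higher, where the shares over all genes with 1 probe set each were 1.47% and 0.940%. The list medians ran from -0.056 for 8 genes of nonsense-mediated decay to 0.011 for 16 other processing and loading factors. The 16 exosome genes had a median of -0.019, with Dis3l at -0.14 and Exosc2 at -0.069, and among nonsense-mediated decay factors the helicase partner Upf2 was at 0.076 and the nuclease Smg6 at -0.072, both with narrowly separate groups. Trim71, a ubiquitin ligase and let-7 target, and Lin28a were the processing factors with the smallest p-values, at -0.091 and -0.089, both near the lower end of the scale.

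Of the 84, 5 had separate groups with lower POMCDicerKO values (5.95%, against 3.86% of all genes), namely Smg6, Dcps, Tob1, Tob2 and Zfp36l1. Another 3 had separate groups with higher values (3.57%, against 2.58%): Upf2, the import receptor Ipo8 at 0.021 and the decapping factor Lsm14a at 0.054. Dcps, the scavenger enzyme that hydrolyses the cap left after decay, read 7.72, 7.64 and 7.71 in Control and 7.56, 7.44 and 7.28 in POMCDicerKO. Its groups were separate, with a log2 fold change of -0.26, a standard error of 0.084 and an unadjusted p of 0.015 (exact permutation p = 0.1). Tob2, an antiproliferative protein that recruits CCR4-NOT to poly(A)-binding protein, read 8.69, 8.77 and 8.69 against 8.45, 8.60 and 8.21, at -0.30 with a standard error of 0.10 (exact permutation p = 0.1). Its paralogue Tob1 was also lower on every POMCDicerKO array, 10.69, 10.78 and 10.83 against 10.50, 10.68 and 10.61, at -0.17 (unadjusted p = 0.0536). Zfp36l1, which binds AU-rich elements and calls in the deadenylases, read 9.72, 10.01 and 9.75 against 9.54, 9.67 and 9.58, at -0.23 with a standard error of 0.091 (exact permutation p = 0.1). Without control 2 Zfp36l1 was at -0.14, and without POMCDicerKO array 3 Tob2 was at -0.19. None of these passed adjustment (adjusted p = 1 for each). Of the remaining genes with the smallest p-values, Lsm7 of the decapping ring was at -0.078 and Rc3h2, a stem-loop binding repressor, at -0.11, with overlapping groups.

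**Figure D5:**
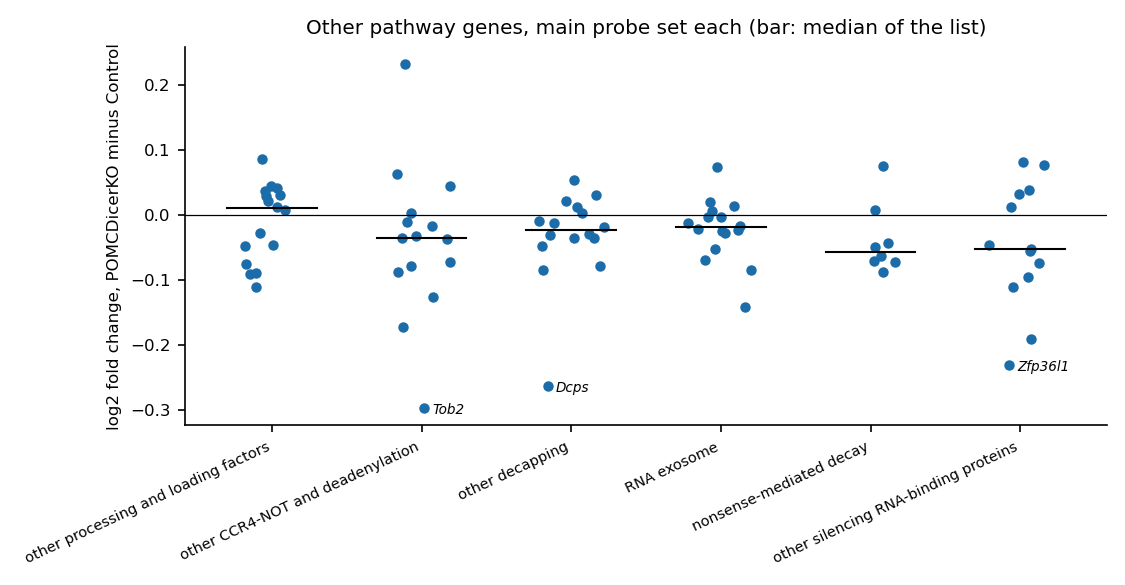
Log2 fold change (POMCDicerKO minus Control, y axis) of the main probe set of 84 other pathway genes in 6 lists, with the list median as a bar and genes of unadjusted p under 0.05 named. Medians lie between -0.056 and 0.011, and Tob2, Dcps and Zfp36l1 are at -0.30, -0.26 and -0.23.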

How the data were processed

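Each deposited value is the log2 expression of a probe set. The authors used RMA and the affy package, per the submitters' processing notes, which give no versions. RMA equalises the distributions of the arrays, so a shift shared by most transcripts would not be visible. Of 45037 non-control probe sets, 34945 carried a single gene symbol in the platform table, updated through Entrez identifiers in the RefSeq table of GRCm38.p6. Groups and replicate numbers came from the sample titles. The groups were compared in limma 3.58.1 in R 4.3.3 (lmFit, eBayes), fitted across all probe sets with Benjamini-Hochberg adjustment at 0.05. The code was tested on simulated data. Single probe sets also had an exact permutation test, two-sided, whose smallest p is 0.1. The members, lists and naming rule (core genes, the 2 smallest p-values per role, and any probe set with separate groups and unadjusted p under 0.05) were chosen with earlier results of these data known. The probe sets beyond 0.3, those with separate groups at a larger p, and Tob1 were named after their values were seen. Alternatives were scaling, level filters, priors, array weights, 1 probe set per gene, a replicate block and leaving out arrays; leaving out controls 1 and 2 together was added after seeing the data, and it leaves 1 control and is not reported. The number of arrays limits the precision, and 0 sample columns were unused. The labels name no hybridisation or scan batch.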

Additional observations from a re-analysis of the deposited data

How the results depend on the processing

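In every setting with a test, 0 member probe sets passed the adjusted threshold, and over the whole array 0 to 2 did with single arrays left out. Leaving out single arrays gave 1 to 8 members at an unadjusted p under 0.05 and 12 to 36 with separate groups. Over all probe sets the shares were 1.94% to 4.61% and 13.1% to 19.2%, against 0.8% to 6.4% and 9.6% to 28.8% of the members, the highest in each case without control 1. With 1 probe set per gene these counts were 0 and 2. Of 59 probe sets followed, 35 kept their sign in every setting and 24 did not, and the cause was not tested. The median of the member genes was 0.003 without POMCDicerKO array 1 and 0.0025 with each gene's probe sets averaged. With array weights the sign turned for Dicer1 (-0.0077), Adar (-1.93e-05), Dis3l2 (0.0062), Ago3 (0.029), Limd1 (0.0101) and Pum2 (-0.0019). With probe sets averaged it turned for Ddx5 (0.0066), Dgcr8 (0.0097), Khsrp (-0.071), Prkra (0.028), Adarb1 (0.018), Dis3l2 (0.019), Ago3 (0.088), Tnrc6a (-0.0069), Pan3 (0.13) and Ddx6 (0.31). Without shared-transcript probe sets it turned for Drosha (-0.068) and Khsrp (-0.096). With single arrays left out, the ranges that crossed 0 were -0.025 to 0.011 for Ddx5 1423645_a_at, -0.088 to 0.071 for Dgcr8 1455311_at, -0.016 to 0.077 for Drosha 1438505_s_at, -0.039 to 0.024 for Ilf2 1417948_s_at, -5.18e-05 to 0.041 for Khsrp 1436813_x_at, -0.029 to 0.043 for Dicer1 1460571_at, -0.094 to 0.016 for Prkra 1448923_at, -0.026 to 0.068 for Adar 1434268_at, -0.17 to 0.026 for Adarb1 1434932_at, -0.065 to 0.058 for Dis3l2 1434090_at, -0.15 to 0.019 for Tut4 1437395_at, -0.11 to 0.062 for Ago3 1435904_at, -0.0103 to 0.11 for Ago4 1453289_at, -0.12 to 0.085 for Limd1 1422731_at, -0.018 to 0.063 for Tnrc6a 1439244_a_at, -0.085 to 0.046 for Tnrc6c 1424645_at, -0.037 to 0.0044 for Cnot8 1451102_at, -0.22 to 0.021 for Pan2 1426700_a_at, -0.077 to 0.0079 for Pan3 1447895_x_at, -0.052 to 0.032 for Ddx6 1434697_at, -0.11 to 0.022 for Edc4 1426874_at, -0.044 to 0.13 for Xrn2 1450777_at, -0.015 to 0.026 for Pum2 1418016_at, -0.16 to 0.064 for Tut4 1439631_at. Replicate numbers 1, 2 and 3 gave correlations of deviations of 0.13, 0.079 and 0.12, and every array correlated best with its own number. Whether the numbers pair the arrays was not tested. A fit with the replicate block gave 0 calls and 2 members at an unadjusted p under 0.05.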
